A study of Mus musculus with 6 samples.

Results

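The genes described here are 9 interferon gamma-inducible GTPases and *Irf1*, read in the livers of aged WT and *Sirt7* KO mice. The 9 comprise the guanylate-binding proteins (GBPs) *Gbp2*, *Gbp3*, *Gbp6* and *Gbp7* and the immunity-related GTPases (IRGs) *Irgm1*, *Irgm2*, *Igtp*, *Iigp1* and *Tgtp1*. They were chosen by name, as 10 of the 54115 genes to which the deposited transcripts were mapped, and all 10 were among the 12524 genes that passed the filter on low counts. The data comprised bulk RNA-seq of 6 livers, 3 from WT and 3 from *Sirt7* KO males, and the labels give each liver as a biological replicate. All mice were 24 months old and had been fasted for 16 h, so there was no young or fed group. The knockout was whole-body, in a line crossed back to C57BL/6J, and WT and KO mice were littermates of heterozygous crosses. In bulk liver, fewer cells of a type and less RNA per cell cannot be told apart.

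Interferon gamma, made mainly by T and NK cells, binds its receptor and activates the kinases JAK1 and JAK2. The signal reaches GAS elements in promoters and induces target genes, among them *Irf1*, a transcription factor that in turn binds ISRE elements in many of the same promoters. GBPs and IRGs are large GTPases that gather on the membranes around intracellular bacteria and parasites and help to break them, and hepatocytes and macrophages are both able to express them. Type I interferons reach many of the same genes through ISREs.

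Sequencing depth lay between 9994860 and 13424776 reads on transcripts per liver, and levels are given as CPM, read counts scaled to library size by TMM. *Sirt7* itself (chr11:120618372-120625240, minus strand) was read at 55.2, 45.5 and 47.3 CPM in the WT livers and 28.6, 41.7 and 40.8 CPM in the KO livers. Every KO liver lay below every WT liver, with a log2 fold change of -0.41 (SE 0.18, unadjusted p = 0.046, adjusted p = 0.42, edgeR quasi-likelihood test with Benjamini-Hochberg adjustment). On the TPM scale, which divides by transcript length, the order was the opposite, at 27.3 to 34.4 TPM in WT and 34.7 to 68.0 TPM in KO livers. The gene-level reads thus check the genotype labels only in part. All libraries were led by hepatocyte genes, with the 8 hepatocyte markers summing to between 50885 and 63544 CPM. *Sirt7* KO 1 stood apart from the other 5 livers for most members and type I interferon genes, so the result of each member is given with and without it.

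The promoters were searched for GAS and ISRE letters, and 6 windows are shown as examples of the arrangements found among the members. ISRE letters were taken as GAAA, any 2 bases and GAAA again on either strand, so that the reverse strand reads TTTC, 2 bases and TTTC, and GAS letters as TTCNNNGAA, which read the same on both strands. Of the 10 genes, 8 had an entry among the RefSeq promoters (GRCm38.p6, 250 bases before to 50 after the start), and *Gbp6* and *Iigp1* had none. ISRE letters were found in 7 of the 8 against 3.44% of all 32851 promoters, and GAS letters in 5 of the 8 against 8.3%. Each window below covers positions -110 to -11 from the RefSeq start, 5′ to 3′ on the strand of the gene, and capitals mark GAS and ISRE letters.
*Igtp*, chr11:58199446-58199545, plus strand: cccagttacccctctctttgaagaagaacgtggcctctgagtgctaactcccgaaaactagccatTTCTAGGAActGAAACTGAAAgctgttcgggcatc
*Irgm2*, chr11:58214867-58214966, plus strand: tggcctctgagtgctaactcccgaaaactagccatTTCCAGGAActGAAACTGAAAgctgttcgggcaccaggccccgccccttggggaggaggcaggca
*Tgtp1*, chr11:48992257-48992356, minus strand: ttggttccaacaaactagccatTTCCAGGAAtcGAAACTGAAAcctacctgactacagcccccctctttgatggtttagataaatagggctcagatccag
*Irgm1*, chr11:48871431-48871530, minus strand: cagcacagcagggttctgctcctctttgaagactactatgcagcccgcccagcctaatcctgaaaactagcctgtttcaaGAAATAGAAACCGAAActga
*Gbp7*, chr3:142530226-142530325, plus strand: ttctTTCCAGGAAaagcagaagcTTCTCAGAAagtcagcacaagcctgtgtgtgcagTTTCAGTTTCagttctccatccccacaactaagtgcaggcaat
*Irf1*, chr11:53769904-53770003, plus strand: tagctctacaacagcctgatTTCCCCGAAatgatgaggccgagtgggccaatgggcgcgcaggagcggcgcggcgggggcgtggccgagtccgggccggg

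*Igtp*, *Irgm2* and *Tgtp1* shared an arrangement in which the ISRE letters began 11 bases after the start of the GAS letters. This spacing was noticed after the sequences had been read, and it was found in 5 of all 32851 promoters, or 0.0152%. The other 2 belonged to *Tgtp2*, a near copy of *Tgtp1*, and to *Gm12185*. *Irgm1* had a pair of overlapping ISRE matches and no GAS letters. *Gbp7* had GAS letters at 2 places and an ISRE on the reverse strand. *Gbp2* and *Gbp3*, whose windows are not printed, had ISRE letters on the reverse strand and no GAS letters, and *Irf1* was the member with GAS letters and no ISRE letters. *Gbp7* and 3 IRGs thus held both motifs, against 0.454% of all promoters. A match of letters describes a window and was not tested as a binding site.

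**Figure D1:**
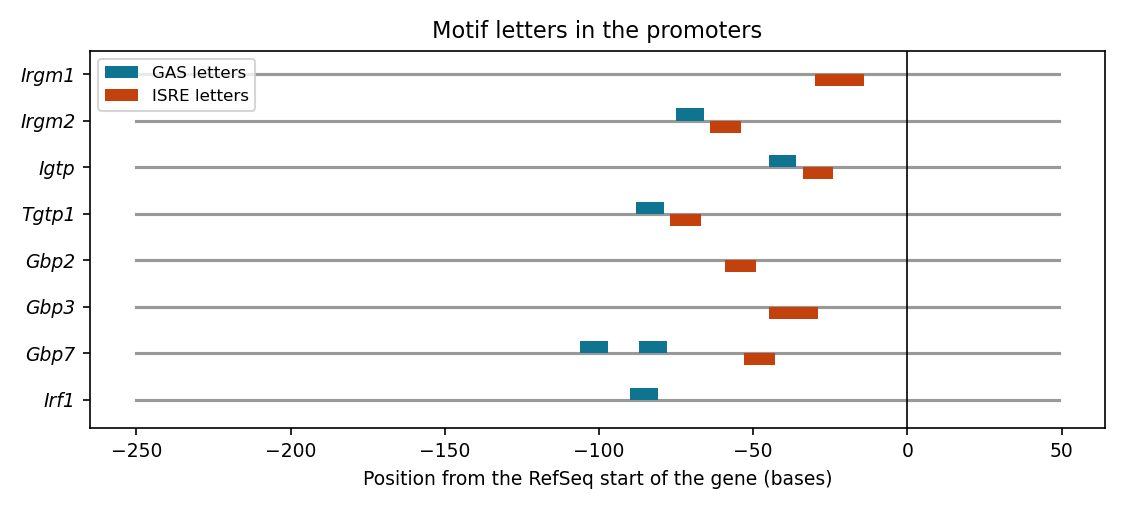
Positions of GAS letters (blue, drawn above the line) and ISRE letters (orange, below it) in the 8 promoters with a RefSeq entry, along the 250 bases before to 50 bases after the start of each gene, in bases. All matches lay between positions -106 and -15, and in *Igtp*, *Irgm2* and *Tgtp1* a GAS match was followed closely by an ISRE match.

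Each gene was compared between genotypes liver by liver, to ask how its level differed between *Sirt7* KO and WT mice. The IRGs come in regulators, the IRGM proteins, which hold other GTPases inactive on the membranes of the cell, and effectors, which load onto the membranes of pathogen vacuoles.

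*Irgm1* (chr11:48861968-48871683) encodes a regulator. Its level was 29.7, 34.6 and 34.9 CPM in the WT livers and 74.8, 38.8 and 40.8 CPM in the KO livers. The groups did not overlap, yet *Sirt7* KO 1 stood far above the other 5 livers, at 2.26 times the WT mean, while *Sirt7* KO 2 and 3 were just above the highest WT liver. The log2 fold change was 0.64 (SE 0.25, unadjusted p = 0.03, adjusted p = 0.37), and without *Sirt7* KO 1 it was 0.27 (SE 0.14, unadjusted p = 0.093, adjusted p = 0.38). The WT mean was 33.1 ± 2.90 and the KO mean 51.5 ± 20.2 CPM (SD, n = 3 each).

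*Irgm2* (chr11:58199618-58222782), also a regulator, was at 25.0, 23.6 and 21.4 CPM in the WT livers and 50.8, 23.7 and 30.3 CPM in the KO livers. Again *Sirt7* KO 1 was the high liver, at 2.18 times the WT mean of 23.3 ± 1.82 CPM (SD, n = 3), and *Sirt7* KO 2 lay inside the WT range. The log2 fold change of 0.59 (SE 0.26, unadjusted p = 0.05, adjusted p = 0.44) became 0.21 (SE 0.17) without *Sirt7* KO 1.

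*Igtp* (chr11:58199556-58207591), which encodes the regulator Irgm3, was at 28.4, 47.2 and 27.5 CPM in the WT livers and 58.5, 31.2 and 27.7 CPM in the KO livers. Here a WT liver was the second highest, and *Sirt7* KO 2 and 3 were inside the WT range. Its log2 fold change was 0.19 (SE 0.31, unadjusted p = 0.56, adjusted p = 0.87). It was -0.22 (SE 0.25) without *Sirt7* KO 1.

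Of the effectors, *Iigp1* (chr18:60376027-60392634), which encodes Irga6, had the highest TPM of all members in every liver. Its level was at 63.8, 70.7 and 112.8 CPM in the WT livers and 176.8, 72.2 and 88.6 CPM in the KO livers. WT 3 exceeded *Sirt7* KO 2 and 3, so that only *Sirt7* KO 1 stood above the WT range. A log2 fold change of 0.45 (SE 0.34, unadjusted p = 0.22, adjusted p = 0.68) was -0.03 (SE 0.25) without that liver.

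*Tgtp1* (chr11:48985327-48994172), which encodes Irgb6, was at 5.67, 5.53 and 4.66 CPM in the WT livers and 11, 4.13 and 4.62 CPM in the KO livers. *Sirt7* KO 1 was at 2.08 times the WT mean, and *Sirt7* KO 2 and 3 were below all WT livers. The log2 fold change was 0.32 (SE 0.39, unadjusted p = 0.43, adjusted p = 0.81), and it was -0.27 (SE 0.30) without *Sirt7* KO 1 and -0.28 when the average transcript length entered the fit.

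Summed over the 5 IRGs, the WT livers held 152.5, 181.5 and 201.3 CPM and the KO livers 372.0, 170.0 and 192.1 CPM. Thus *Sirt7* KO 1 held more than any other liver, and *Sirt7* KO 2 and 3 lay inside the range of the WT livers.

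Per length of transcript, each GBP was lower than *Irgm1*, *Irgm2*, *Igtp* and *Iigp1* in every liver. *Gbp6* (chr5:105270702-105293698), in the cluster of GBP genes on chromosome 5, was at 3.30, 5.26 and 3.62 CPM in the WT livers and 17.0, 8.90 and 4.91 CPM in the KO livers. *Sirt7* KO 1, at 4.19 times the WT mean, and *Sirt7* KO 2 were above every WT liver, and *Sirt7* KO 3 was below WT 2. The log2 fold change was 1.34 (SE 0.43, unadjusted p = 0.013, adjusted p = 0.29), the largest of the members in this fit. It was 0.77 (SE 0.37, unadjusted p = 0.069) without *Sirt7* KO 1. From protein-coding transcripts only it was 1.00, where *Gbp7* was at 1.06.

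*Gbp7* (chr3:142530342-142550149) had another order of livers. Its level was 3.30, 3.81 and 5.40 CPM in the WT livers and 5.95, 7.84 and 12.8 CPM in the KO livers. All KO livers lay above all WT livers, and the highest was *Sirt7* KO 3, at 3.07 times the WT mean, with *Sirt7* KO 1 the lowest of the KO livers. Between genotypes the log2 fold change was 1.08 (SE 0.34, unadjusted p = 0.012, adjusted p = 0.28), and without *Sirt7* KO 1 it was 1.30 (SE 0.33, unadjusted p = 0.0037, adjusted p = 0.091). The counts were small, from 39 to 133 reads per liver.

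*Gbp2* (chr3:142620602-142638008), a GBP that carries a lipid anchor for membranes, was at 3.22, 1.72 and 2.51 CPM in the WT livers and 2.38, 1.38 and 2.22 CPM in the KO livers. The groups overlapped and the highest liver was WT 1, with a log2 fold change of -0.32 (SE 0.41, unadjusted p = 0.47, adjusted p = 0.83), and -0.46 (SE 0.49) without *Sirt7* KO 1.

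*Gbp3* (chr3:142560026-142573209) was at 2.20, 0.817 and 1.63 CPM in the WT livers and 4.67, 0.530 and 1.45 CPM in the KO livers. The highest was *Sirt7* KO 1, and *Sirt7* KO 2, with 5 reads, was the lowest of the 6. Its log2 fold change of 0.52 had the widest error of the members (SE 0.72, unadjusted p = 0.49, adjusted p = 0.84), and it was -0.63 (SE 0.69) without *Sirt7* KO 1.

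The 4 GBPs summed to 12.0, 11.6 and 13.2 CPM in the WT livers and 30, 18.6 and 21.4 CPM in the KO livers. The sums of the KO livers lay above those of the WT livers, and *Gbp6* and *Gbp7* made up most of each KO sum.

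*Irf1* (chr11:53770014-53778374), the transcription factor among the members, was at 30.4, 34.6 and 28.1 CPM in the WT livers and 31.2, 29.2 and 27.3 CPM in the KO livers. *Sirt7* KO 1, the high liver for most GTPases, was at 1.01 times the WT mean for *Irf1*. The log2 fold change was -0.08 (SE 0.15, unadjusted p = 0.58, adjusted p = 0.88), and -0.13 (SE 0.15) without *Sirt7* KO 1, with a WT mean of 31 ± 3.27 and a KO mean of 29.2 ± 1.98 CPM (SD, n = 3 each).

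**Figure D2:**
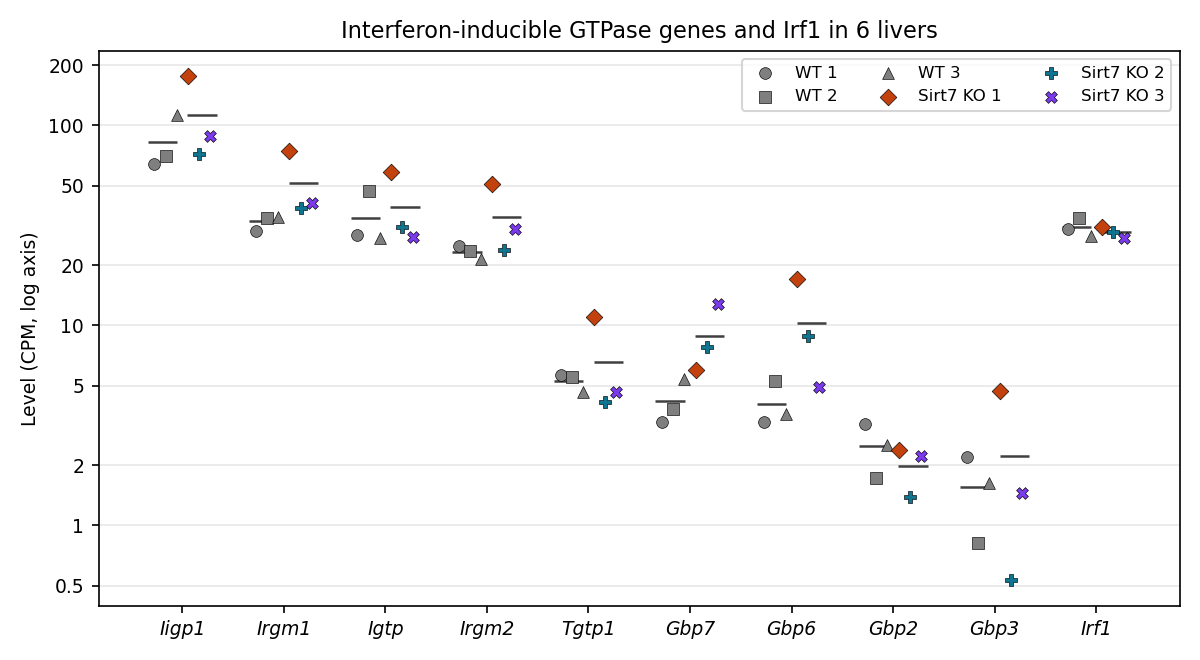
Level of each member in each of the 6 livers, in CPM on a log axis, with WT livers in grey, *Sirt7* KO livers in colour and a bar at the mean of each genotype. *Sirt7* KO 1 (orange diamonds) lies above the other livers for *Iigp1*, *Irgm1*, *Igtp*, *Irgm2*, *Tgtp1*, *Gbp6* and *Gbp3*, *Sirt7* KO 3 is the highest for *Gbp7*, and the 6 livers lie close together for *Irf1*.

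By edgeR's quasi-likelihood test, 3 of the 10 members were at an unadjusted p under 0.05, all higher in *Sirt7* KO livers, against 6.54% of all tested genes higher at that threshold. These were *Gbp6*, *Gbp7* and *Irgm1*, and 0 were lower, against 4.78%. None of the 10 was called at an adjusted p under 0.05 with a fold change over 1.5, where the lowest adjusted p among them was 0.28 and 0.00798% of tested genes, that is 1 gene, were called higher. DESeq2 called 0 of the members, against 1.57% of its tested genes called higher and 0.595% lower. Of the members, 8 had a log2 fold change above 0 and 2 below, with a median of 0.49, against -0.01 over all tested genes. The genotypes did not overlap for 2 of 10 members, *Gbp7* and *Irgm1*, both higher in KO, against 8.74% of all tested genes higher and 8.09% lower without overlap. For these 2 the two-sided exact permutation test of log2(CPM + 0.5) gave p = 0.1, the smallest value that 3 against 3 livers allow.

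Without *Sirt7* KO 1, 4 members had a log2 fold change above 0 and 6 below, and the median was -0.08, against -0.02 over all 12921 genes then tested. *Gbp7* alone was at an unadjusted p under 0.05, higher in KO, or 1 of 10 members against 8.97% of all genes, and 0 were lower, against 8.12%.

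**Figure D3:**
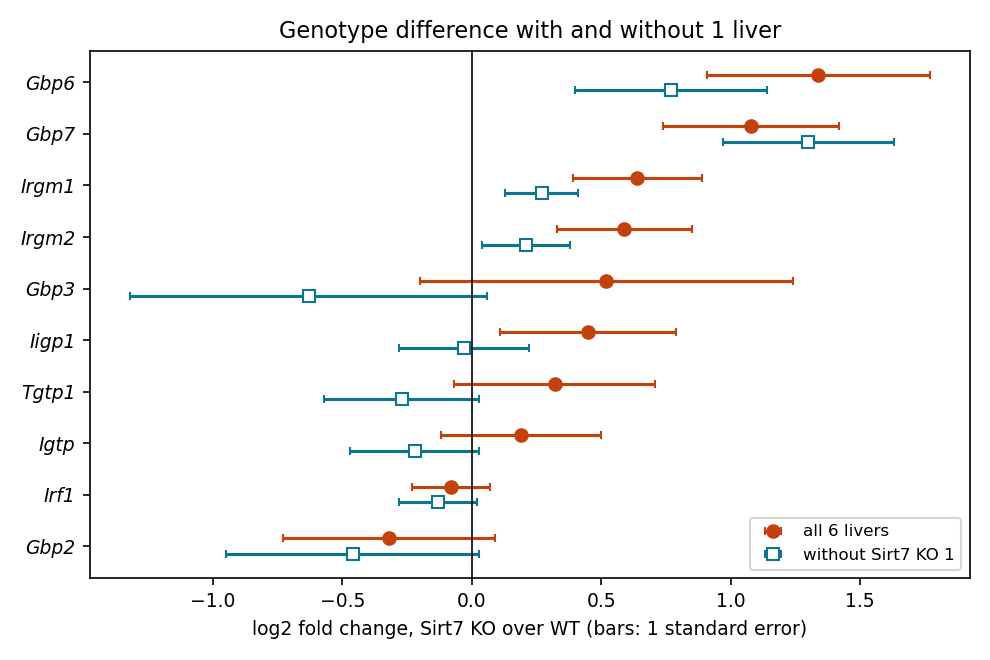
Fitted log2 fold change of each member, *Sirt7* KO over WT, from all 6 livers (filled circles) and without *Sirt7* KO 1 (open squares), with bars of 1 standard error. Leaving out that liver moved *Irgm1* from 0.64 to 0.27 and *Iigp1* from 0.45 to -0.03, and *Gbp7* went from 1.08 to 1.30.

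The difference between livers was then counted over the members, by a count chosen after the values had been seen. *Sirt7* KO 1 was the highest of the 6 livers for 7 of 10 members, against 18.6% of all tested genes, and it exceeded every other liver by more than 1.5 times for 6 of 10 members, against 1.97%. WT 1 was the highest for *Gbp2*, WT 2 for *Irf1* and *Sirt7* KO 3 for *Gbp7*. The mean of the standardized log2 levels of the 10 members was 1.32 in *Sirt7* KO 1 and between -0.43 and -0.10 in the other 5 livers. The sum of all members was 433.2 CPM in that liver and 194.9 to 242.5 CPM in the others.

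The members were then compared with each other. On the TPM scale, which is per length of transcript, the 9 GTPases summed to 66.7, 69.0 and 76.6 in the WT livers and 133.0, 70.1 and 77.7 in the KO livers. *Iigp1* took the greatest share of this sum in every liver, from 31.7% to 48.1%, and *Irgm1* took 20.1% to 24.3%. *Igtp* followed at 17.1% to 30.9% and *Irgm2* at 7.06% to 10.4%. *Irgm1* and *Igtp* were neighbours in that order and changed places between livers, since *Igtp* was the higher in WT 1 and WT 2. The 4 GBPs and *Tgtp1* were the smallest parts, and no GBP exceeded 4.53% in any liver.

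Over the 6 livers, the log2 levels of *Irgm1* and *Irgm2* had a Pearson r of 0.93 and those of *Irgm1* and *Gbp6* one of 0.91. *Gbp7* and *Igtp* had an r of -0.25. The same values without *Sirt7* KO 1 were 0.42, 0.66 and -0.41, so that the close relation of the IRGM genes rested on that liver. *Igtp* and *Irf1* had an r of 0.74, which was 0.92 over the other 5 livers, the highest of the pairs with *Irf1*. The lowest was that of *Irf1* and *Gbp7*, at -0.69 and -0.71. *Irf1* had an r of 0.06 with *Irgm1*, 0.09 with *Irgm2* and -0.12 with *Iigp1*, and of -0.46, -0.33 and -0.60 over the other 5 livers. These describe 6 libraries and carry no test.

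Among 18 further GBP and IRG genes, 14 passed the filter. Of these, 3 were at an unadjusted p under 0.05 and higher, against 6.54% of all tested genes, and 0 lower, against 4.78%. *Ifi47*, which encodes the IRG Irgd, was at 9.48, 8.26 and 8.21 CPM in the WT livers and 28.9, 18.3 and 23.2 CPM in the KO livers. All 3 KO livers exceeded the WT livers by a wide margin, and the log2 fold change was 1.44 (SE 0.21, unadjusted p = 6.8e-05, adjusted p = 0.055). Without *Sirt7* KO 1, which was its highest liver too, it was 1.27 with an adjusted p of 0.024. *Gbp2b*, also known as Gbp1, had a log2 fold change of 1.39 (SE 0.53, unadjusted p = 0.027, adjusted p = 0.36). Its WT livers were at 0.544 to 0.593 CPM and its KO livers at 1.10 to 2.31 CPM. These were 7, 6 and 8 reads in the WT livers and 12, 11 and 24 in the KO livers. *Gbp2b* thus passed the filter only through its KO livers, so its p and its place in these counts lend no support. *Gbp10*, a near copy of *Gbp6*, was at 3.13, 1.36 and 2.88 CPM in the WT livers and 7.60, 4.03 and 4.34 CPM in the KO livers. Its log2 fold change was 1.11 (SE 0.42, unadjusted p = 0.026, adjusted p = 0.36). *Gbp2b*, *Gbp10* and *Ifi47* did not overlap between genotypes and were higher in KO, and *F830016B08Rik* did not overlap and was lower. Of all tested genes, 8.74% were higher and 8.09% lower without overlap.

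The other members of these families did not pass that threshold with all 6 livers. *Gvin1*, a very large interferon-inducible GTPase, had a log2 fold change of 1.01 (SE 0.46), *Gbp8* of 0.86 (SE 0.66), *Gm12250* of 0.55 (SE 0.64), *9930111J21Rik2* of 0.50 (SE 0.41), *Tgtp2* of 0.45 (SE 0.62) and *Gbp4* of 0.44 (SE 0.48). *Gbp11* was at 0.19 (SE 0.59) and *Irgq* at 0.07 (SE 0.23). *Gm4951*, an IRG gene on chromosome 18 like *Iigp1*, was expressed at 102.2 to 126.7 CPM in all livers, with a log2 fold change of 0.03 (SE 0.15), and *Sirt7* KO 1 was not the highest there. *F830016B08Rik* was at -0.48 (SE 0.24) and *Gbp9* at -0.88 (SE 0.55). *Gbp5*, *Gm4841*, *9930111J21Rik1* and *Gm4070* were too low to be tested. The reads of *Gm4070* were 89 in *Sirt7* KO 1, 12 in WT 3 and 0 elsewhere. *Gvin1* had the same 89 reads in *Sirt7* KO 1, so how reads were divided between these genes is uncertain. *Sirt7* KO 1 was the highest liver for 8 of the 14 tested genes, against 18.6% of all tested genes. It exceeded every other liver by more than 1.5 times for 2 of them, against 1.97%. Without that liver 2 of the 14 were at that threshold and higher, *Gbp2b* and *Ifi47*, against 8.97% of all genes then tested. *Gbp2b* again passed the filter only through its KO livers. In that fit 1 was lower, *F830016B08Rik* at -0.76 (unadjusted p = 0.005), against 8.12%.

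**Figure D4:**
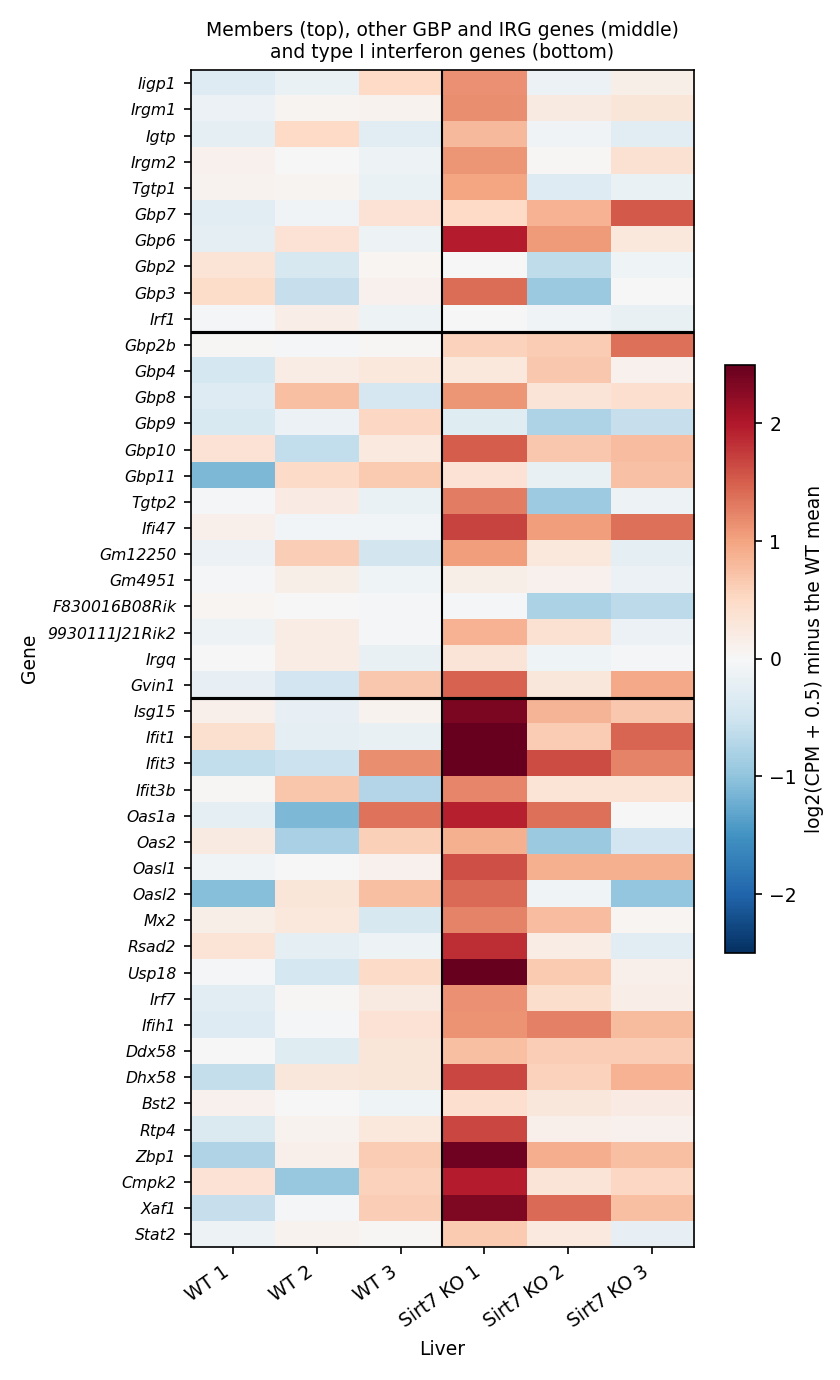
Level of each gene in each liver as log2(CPM + 0.5) minus the mean of the WT livers (red above it, blue below), for the 10 members, the 14 other tested GBP and IRG genes and 21 type I interferon genes. The column of *Sirt7* KO 1 is red over most of the members and type I interferon genes, and 3 squares beyond 2.5 are drawn at that limit.

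In the pathway upstream, *Ifng* itself was read 3 times in *Sirt7* KO 1 and 0 times in the other 5 livers, where up to 3 reads per liver are allowed by a count of 0, so its difference was not detectable at this depth. *Stat3*, which mainly serves cytokines such as interleukin-6, was at 143.7, 103.0 and 89.0 CPM in WT against 183.6, 199.4 and 174.9 CPM in KO livers. Its log2 fold change was 0.73 (SE 0.19, unadjusted p = 0.004, adjusted p = 0.2). Its KO livers were alike and all above WT, and without *Sirt7* KO 1 the log2 fold change was 0.74 (unadjusted p = 0.0066). *Irf9* was at 0.59 (SE 0.33), and the receptor chains *Ifngr1* and *Ifngr2* were at -0.16 (SE 0.20) and 0.00 (SE 0.22).

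Of 7 tested inhibitors of the pathway, 0 were at an unadjusted p under 0.05 and higher, against 6.54% of all tested genes. The 1 that was lower, against 4.78%, was *Pias4*, which encodes a SUMO ligase. Its log2 fold change was -0.46 (SE 0.19, unadjusted p = 0.041, adjusted p = 0.41), which was -0.41 without *Sirt7* KO 1 (unadjusted p = 0.092). *Socs3* was at 0.69 (SE 0.34) and *Ptpn11* at -0.30 (SE 0.19). *Socs1*, the main feedback inhibitor of interferon gamma signaling, was below the filter.

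Of 22 tested further targets of interferon gamma, 8 were at an unadjusted p under 0.05 and higher in KO and 0 lower. Of all tested genes, 6.54% were higher and 4.78% lower at that threshold. The median log2 fold change of the 22 was 0.48. Antigen processing genes make up much of this list, and some of them did not pass, such as *B2m* at 0.09 (SE 0.24), *Psme1* at 0.03 (SE 0.15) and *Ciita* at -0.69 (SE 0.71). The immunoproteasome subunit *Psmb9* was at 5.17, 13.1 and 6.95 CPM in the WT livers and 23.2, 23.9 and 18.5 CPM in the KO livers, and its log2 fold change was 1.38 (SE 0.32, unadjusted p = 0.0018). Its 3 KO livers were high alike. *Psmb8*, another subunit, was at 0.84 (SE 0.21), and the peptide transporter genes *Tap1* and *Tap2* were at 0.78 (SE 0.26) and 0.48 (SE 0.14). *Tapbp*, also an antigen processing gene, was at 0.38 (SE 0.13). The others were *Parp14* at 1.11 (SE 0.31), the class II gene *H2-Eb1* at 0.78 (SE 0.31) and *Wars*, a tRNA synthetase gene, at 0.55 (SE 0.19). The adjusted p of these was at least 0.17. Without *Sirt7* KO 1, 6 of the 22 were at that threshold and higher, namely *Psmb8*, *Psmb9*, *Tap2*, *Tapbp* and *Parp14* of these 8 and *Psmb10*, and 2 others, *Icam1* at -1.01 and *Ciita* at -1.72, were lower. Of all genes tested without that liver, 8.97% were higher and 8.12% lower at that threshold. *Sirt7* KO 1 was the highest liver for 10 of the 22, against 18.6% of all tested genes. It exceeded every other liver by more than 1.5 times for 0 of them, against 1.97%.

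Most of the antiviral genes that type I interferons induce were, like most members, highest in *Sirt7* KO 1. Of 21 tested, 10 also had all KO livers above all WT livers, against 8.74% of all tested genes. In 0 of the 21 did all KO livers lie below all WT livers, against 8.09%. At an unadjusted p under 0.05, 11 of the 21 were higher, against 6.54% of all tested genes, and 0 lower, against 4.78%. The median log2 fold change of the 21 was 1.10. *Sirt7* KO 1 was the highest liver for 20 of the 21, against 18.6% of all tested genes. It exceeded every other liver by more than 1.5 times for 15 of them, against 1.97%. The lowest adjusted p of the 21 was 0.15. *Ifit3* had the largest log2 fold change, 1.99 (SE 0.63), followed by *Ifit1* at 1.89 (SE 0.49) and *Isg15*, a ubiquitin-like protein gene, at 1.78 (SE 0.54). *Ifit1* was at 3.89, 2.36 and 2.44 CPM in the WT livers and 18.9, 4.66 and 8.57 CPM in the KO livers. Its KO livers all lay above WT, with *Sirt7* KO 1 far above the rest. The remaining 8 were *Xaf1* at 1.74 (SE 0.51), *Zbp1* at 1.64 (SE 0.58), *Usp18* at 1.54 (SE 0.61), *Oasl1* at 1.23 (SE 0.26), *Dhx58* at 1.15 (SE 0.38), *Ifih1* at 1.10 (SE 0.25), *Ddx58* at 0.67 (SE 0.21) and *Irf7* at 0.64 (SE 0.26). Without *Sirt7* KO 1, 5 of the 21 were higher at that threshold, against 8.97% of all genes then tested, and 0 lower, against 8.12%. In that fit 18 of the 21 had a log2 fold change above 0 and 3 below. Their median was 0.52, where the median of the members was -0.08. The difference between the lists was not tested.

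GBPs and IRGs need the ATG8 conjugation machinery to find their membranes, and GBPs open the way to inflammasomes. Of 12 tested genes of this machinery, 1 was at an unadjusted p under 0.05 and higher and 1 was lower, near the 6.54% and 4.78% of all tested genes, and the median log2 fold change was 0.02. *Gsdmd*, the pore protein that inflammasome caspases cleave, was at 31.9, 36.9 and 37.8 CPM in the WT livers and 44.8, 64.2 and 57.4 CPM in the KO livers. Its log2 fold change was 0.64 (SE 0.17, unadjusted p = 0.0042, adjusted p = 0.21). The ATG8 gene *Map1lc3a* had a log2 fold change of -0.49 (SE 0.14, unadjusted p = 0.0068, adjusted p = 0.23), and *Casp1* one of 0.45 (SE 1.00). For both *Gsdmd* and *Map1lc3a* the genotypes did not overlap, and *Sirt7* KO 1 was the KO liver nearest to WT. Without it the counts were again 1 higher and 1 lower, against 8.97% and 8.12% of all genes then tested. *Gsdmd* was then at 0.78 (adjusted p = 0.042), in a fit where 252 of 12921 genes were at an adjusted p under 0.05.

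Markers of other cell types were summed in each liver beside these results. The 10 Kupffer cell and macrophage markers summed to 91.5, 99.4 and 235.8 CPM in the WT livers and 240.8, 90.6 and 178.2 CPM in the KO livers, with none of the 10 at 0 in any liver. *Sirt7* KO 1 was the highest liver for 6 of the 10, against 18.6% of all tested genes. Among the 6 were *Clec4f*, *Vsig4* and *C1qc*, and WT 3 was the highest for 4. *Marco* alone gave 42.8 CPM in WT 3 and 3.11 in *Sirt7* KO 1, and without it, a sum added after seeing the data, these livers held 193.0 and 237.7 CPM. The members summed to 242.5 and 433.2 CPM in them. The sum of the 6 neutrophil markers was highest in *Sirt7* KO 1, at 8.79 CPM against 2.23 to 5.42 in the others. Of these markers, *Retnlg* was highest in WT 1 and *Ly6g* was at 0 throughout. The 14 T and NK cell markers summed to 2.81 to 8.51 CPM in the WT and 3.39 to 7.60 CPM in the KO livers, and *Nkg7* passed the filter. Of these, *Cd4* was read 0 times in each WT liver and 10, 12 and 23 times in the KO livers, while *Cd3d*, *Cd3e* and *Cd3g* overlapped between genotypes. *Cd8a*, *Cd8b1* and *Gzmb* had lower means in KO livers, and *Prf1*, *Klrb1c* and *Ncr1* higher ones, all with overlap. The sum of 7 sinusoidal endothelial markers was 100.3 CPM in *Sirt7* KO 1 and 72.5 to 112.0 CPM in the others. Stellate and bile duct cell markers summed to 201.5 CPM there against 125.2 to 203.1, and B and plasma cell markers to 43.1 CPM against 22.6 to 49.5. With all 6 livers, 0 of the tested markers were at an unadjusted p under 0.05, but only 1 of 14 T and NK cell, 4 of 8 B and plasma cell and 3 of 6 neutrophil markers passed the filter. Without *Sirt7* KO 1, *Cd4* passed the filter through its KO livers alone and was higher (adjusted p = 0.046), so this value lends no support. In that fit 252 of 12921 genes were at an adjusted p under 0.05. *Nkg7* was then at -1.80 (unadjusted p = 0.022) and *Dcn* at -0.41 (unadjusted p = 0.038). Of the 8 hepatocyte markers, 3 were then higher and 1 lower at an unadjusted p under 0.05, against 8.97% and 8.12% of all genes then tested. The part of these cells in the levels of the members was not tested.

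**Figure D5:**
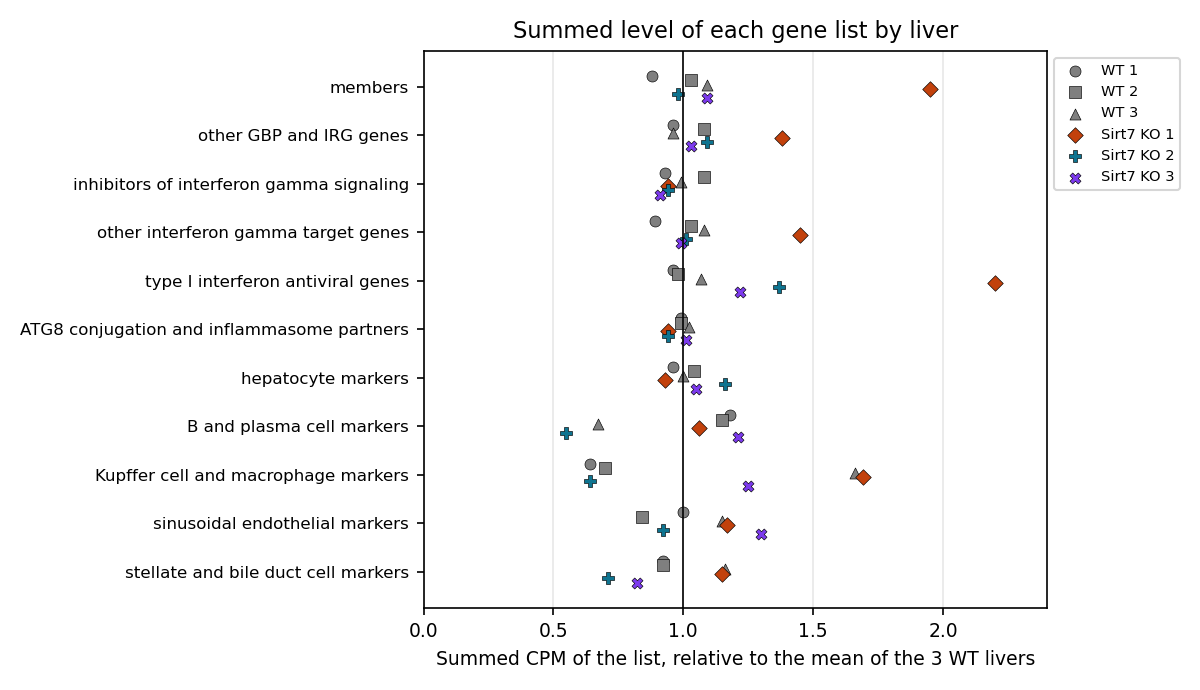
Summed CPM of each gene list in each liver, relative to the mean of the WT livers (vertical line at 1). *Sirt7* KO 1 (orange diamonds) reaches 1.95 for the members and 2.20 for the type I interferon genes, and for the Kupffer cell and macrophage markers it lies at 1.69 beside WT 3 at 1.66. The sparse T and NK cell and neutrophil lists and the signaling genes are not drawn.

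Several members share sequence with near copies, so that the reads of each depend on how Salmon divided them. Of the words of 31 bases in the transcripts of *Tgtp1*, 84.4% also occurred in another gene, 83.2% in *Tgtp2*. For *Gbp6* the share was 74.3%, mostly with *Gm43302*, a gene model that spans *Gbp6* and its neighbours. *Igtp* shared 15.9% of its words with *Irgm2*. The share with any other gene was 14.7% for *Gbp7*, 10.7% for *Irgm2* and at most 6.92% for the remaining members. With *Tgtp1* and *Tgtp2* counted as 1 gene, the log2 fold change was 0.36, and with *Gbp6* and *Gbp10* as 1 gene it was 1.26 (unadjusted p = 0.0049). *Gbp6* and *Gm43302* together, a sum chosen after seeing the data, gave 1.23 (unadjusted p = 0.018).

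The estimated isoforms were less stable than the genes. The annotated *Irgm2* gene begins in the *Igtp* locus, upstream of the RefSeq start of the window shown above. Its isoform ENSMUST00000058704.8 took 91.4%, 23.4% and 6.26% of the reads of *Irgm2* in the WT livers and 8.33%, 0% and 0% in the KO livers. Another, ENSMUST00000108836.1, took 0%, 0% and 16.6% in the WT and 22.6%, 100% and 62.1% in the KO livers, and its two-sided exact permutation p was 0.1, the smallest possible. The WT livers alone thus ranged from 6.26% to 91.4% for the former isoform. *Iigp1* had an isoform, ENSMUST00000032473.6, at 30.7%, 66.4% and 27.2% in the WT and 24.6%, 14.2% and 20.6% in the KO livers, again with a permutation p of 0.1. In contrast, *Irgm1* was read mainly as ENSMUST00000097271.3 in every liver, at 72.1% to 88.9%.

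Finally, the genes most like the members over the 6 livers were sought among 8905 genes with a mean of at least 50 reads, by the Pearson r of their log2 level with the mean standardized level of the members. *Helz2*, an interferon-inducible helicase gene, came first with an r of 0.987, a Spearman rho of 1.00 and an r of 0.99 without *Sirt7* KO 1. It was at 19.6, 20.9 and 19.5 CPM in the WT livers and 30.4, 18.0 and 21.5 CPM in the KO livers. The next were *Emilin1* at 0.983, *Gimap6* at 0.977, *Fam3c* at 0.969, *Creld2* at 0.969, *Drg1* at 0.963, *Srsf10* at 0.961 and *Osgin1* at 0.961. Without *Sirt7* KO 1 these 7 had an r between 0.45 and 0.86. All 8 were highest in *Sirt7* KO 1, and with 6 libraries and this many candidates the values only describe these livers.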

How the data were processed

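RNA from 6 livers, 3 of each genotype, was copied into cDNA with a SMART-seq kit and sequenced. The submitters' processing notes name Trim Galore 0.6.5 and Salmon 1.2.1. Per liver, the authors deposited Salmon's estimated count for each transcript, without normalization, and TPM, which Salmon scaled by transcript length. Replicates were not pooled, and the annotation release is not given in the sources used here.

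Here the estimated counts were added up by GENCODE M21 gene (GRCm38) and rounded. Transcripts with the same version there numbered 139172 of 140992, another 619 differed in version, and 1201, holding 0.303% to 0.492% of the reads, were dropped for want of a gene. The quasi-likelihood test of edgeR 4.0.16 under R 4.3.3 was run after TMM scaling and filterByExpr (minimum count 10), with Benjamini-Hochberg adjustment over 12524 genes. A call needed an adjusted p under 0.05 and a fold change over 1.5. DESeq2 1.42.0, with and without average transcript lengths as offsets, served as an alternative. Standard errors are the absolute log2 fold change over the root of the F statistic. The biological coefficient of variation was 26.4%. Both tools were tested on simulated data. Between livers of a genotype the chi-square per gene was 17 or more, so each liver was 1 sample. Promoters and shared words were read with Python 3.11.15 from RefSeq promoters and GENCODE M21 transcripts.

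The members and the lists were chosen with earlier results of these data known. Named were *Sirt7*, all members, all other GBP and IRG genes, the genes of the other pathway lists at an unadjusted p under 0.05 or among the 3 with the largest change, and the 8 genes most like the members among those with a mean of at least 50 reads. Genes named outside this rule (*Ifng*, *Ifngr1*, *Ifngr2*, *Socs1*, *Gm12185*, *Gm43302*, *B2m*, *Psme1*, *Psmb10*, *Icam1*, *Ciita* and some markers) were chosen for their role or after their values were seen. An item of the signaling list is not reported here, nor the counts that rest on it.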

Additional observations from a re-analysis of the deposited data

How the results depend on the processing

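Of 161 values of member log2 fold changes under the alternatives, 151 kept their direction and their side of the adjusted threshold. Over fits that left out 1 liver each, *Gbp3* ranged from -0.63 to 0.97, *Igtp* from -0.22 to 0.49, *Iigp1* from -0.03 to 0.75, *Tgtp1* from -0.27 to 0.56 and *Irf1* from -0.15 to 0.00. The values below 0 of the first 4 were those without *Sirt7* KO 1, and that of 0.00 was without WT 2. With average transcript lengths as offsets, *Tgtp1* was at -0.28 in both tools. *Gbp6* and *Gbp7* stayed above 0 in every alternative run, from 0.77 to 1.68 and from 0.72 to 1.40. *Irgm1* and *Irgm2* did so too, from 0.27 to 0.81 and from 0.21 to 0.80, and *Gbp2* stayed below 0, from -0.52 to -0.10. With no filter on low counts, 5 members were at an unadjusted p under 0.05 and 3 were called: *Gbp6* (adjusted p = 0.001), *Gbp7* (adjusted p = 0.028) and *Irgm1* (adjusted p = 0.043). These had adjusted p-values of at least 0.081, 0.072 and 0.24 in that order under the other alternatives. The cause was not tested.

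Over all genes, 1 was called higher and 0 lower. With no filter these were 417 and 216, with DESeq2 187 and 71, with DESeq2 and length offsets 173 and 69, and at an unadjusted p with the fold change 554 and 371. Total-count scaling called 2 higher and moved the median of all genes to -0.11, and edgeR with length offsets called 1 lower. Leaving out 1 liver at a time gave 0 to 165 higher and 0 to 87 lower, and 1 to 4 members at an unadjusted p under 0.05. The highest counts of genes, 165 and 87, and the lowest count of members, 1, were those without *Sirt7* KO 1. The replicate numbers gave no clear pairing of the livers. Correlations were 0.067, 0.058 and -0.055 between same-numbered livers and -0.091 to 0.052 between the others. With the number as a block, 31 genes were called higher and 10 lower, 3 members were at an unadjusted p under 0.05 and 0 members were called.

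Low counts limit the 4 GBPs and *Tgtp1*, and 3 livers a genotype limit every comparison.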
